A study of Mus musculus with 7 samples.

Results

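The 49 genes described here encode proteins of synaptic vesicles and of the machinery that docks, primes, fuses and recovers vesicles. They were chosen by name, as the rows of a transcript abundance table of 54309 genes whose symbol was on a list of vesicle membrane proteins, calcium sensors, fusion proteins, active zone scaffolds, vesicular glutamate transporters, endocytic proteins and synucleins. All 49 were in the table, all 49 were above 0 in every sample, and all 49 passed the filter on low values, Slc17a8 only through its ZT8 samples (a mean of at least 1 TPM, a unit of abundance scaled to the same sum in every sample). The choice is by symbol, not by a threshold on measured values, but the list was drawn up with earlier results of these data known.

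The RNA came from dorsal root ganglia, which hold the cell bodies of sensory neurons next to the spinal cord. They were taken at lumbar levels 4 to 6 of C57bl/6 mice labelled male and aged 6 to 8 weeks. In every animal the sciatic nerve had been injured 72 h before the ganglia were taken, so the series compares injured ganglia with injured ganglia. In one group the clock time was Zeitgeber time (ZT, hours after lights on) 20, in the dark phase of a standard light cycle (4 samples), and in the other it was ZT8, in the light phase (3 samples). Nerve injury and dissection shared a clock time within each group, and the effects of the time of one and of the other cannot be told apart. Enzymes were used to free the cells, a gradient of albumin enriched the neurons among them, and a low-input kit was used for the libraries. The labels do not say whether a sample was 1 animal or a pool, so the p-values below measure the spread between these samples.

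Neurons store transmitter in small vesicles. Proteins of the vesicle membrane bind SNARE proteins of the plasma membrane, calcium sensors trigger fusion, active zone proteins hold vesicles at release sites, and endocytic proteins retrieve the membrane. Sensory neurons make these proteins in the ganglion and send them along the axon to terminals in the spinal cord, where glutamate is released. They also carry neuropeptides in dense-core vesicles, and SNARE-driven fusion adds membrane to growing axons.

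Higher transcript levels at ZT20 were seen for 23 of the 49 genes and a lower level for 1, Synpr (limma on log2(TPM + 1), adjusted p under 0.05 over 14800 tested genes). Of all tested genes, 12.8% were called higher and 3.61% lower. The largest rises were in Syp (4.08-fold between mean TPM values), Sv2c (3.42-fold), Syt7 (3.08-fold), Pclo (2.86-fold) and Cplx2 (2.81-fold). Calls with a log2 difference of at least 1 numbered 14, all higher. Over all tested genes 6.94% were called higher and 0.669% lower by that rule. The median log2 difference over the 49 genes was 0.67, against 0.23 over all tested genes, and 44 of the 49 differences were positive, against 9821 of the 14800. An unadjusted p under 0.05 was reached by 31, and by 5122 of all tested genes. At 28 genes the values of the groups did not overlap, 26 of them higher and 2 lower at ZT20. Over all tested genes 24.5% were higher and 8.72% lower at ZT20 with no overlap.

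The counts changed when samples were left out. Leaving out each of the 7 samples in turn kept 13 of the calls in every fit: Cadps, Cplx2, Slc17a6, Snap91, Sv2b, Sv2c, Syn2, Synj1, Syp, Syt1, Syt4, Syt7 and Unc13a. The other 11 were lost in at least 1 of those fits, and the number called fell to 15 without ZT20 replicate 1, 13 without ZT20 replicate 3 and 14 without ZT20 replicate 4. The number called among all tested genes fell in the same fits, from 2433 to 1132, 723 and 855. Of the 13 kept calls, those of Syt7, Snap91 and Syt1 held narrowly. Without ZT20 replicate 3 their adjusted p was 0.0499, 0.0494 and 0.0468. All samples are labelled male, but in ZT20 replicates 3 and 4 the Y-linked genes Ddx3y, Eif2s3y and Uty were at 0 TPM and Xist, the transcript of the inactive X chromosome, was at 2.21 and 2.3 TPM. In ZT20 replicate 2 Xist was at 1.08 TPM together with Y-linked transcripts. Without ZT20 replicates 3 and 4, limma called 0 of the 49 genes and 0 of all tested genes, while 23 of the 49 were still under an unadjusted p of 0.05 (2378 of all 14687 tested genes), 43 differences were positive (9247 of all) and the median was 0.53 (0.17 over all). Without ZT20 replicates 2, 3 and 4, a fit chosen after seeing the data, 0 were called, 14 were under an unadjusted p of 0.05 (1155 of all 14584 tested genes) and the median was 0.65 (0.20 over all). The single sample left at ZT20 is then assumed to vary like the other group.

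**Figure D1:**
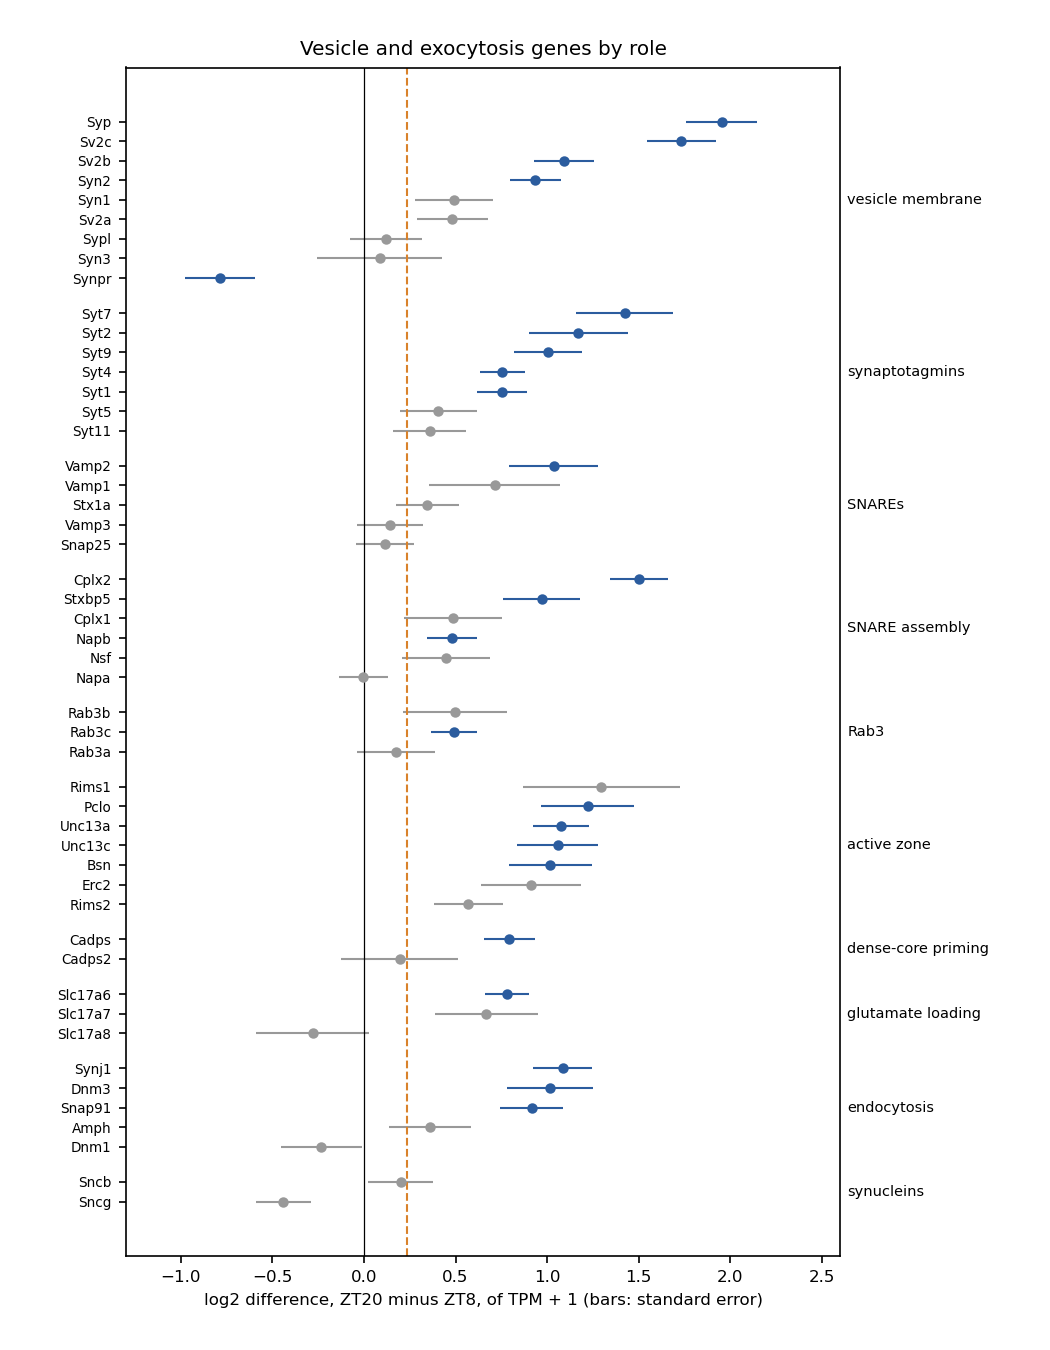
Log2 difference in TPM + 1 between ZT20 (4 samples) and ZT8 (3 samples) for each of the 49 genes, ordered by role. Points are the fitted differences, bars their standard errors, blue marks an adjusted p under 0.05, and the dashed line marks the median of all tested genes, 0.23. Every synaptotagmin and active zone gene lies to the right of that line, and Synpr is the only blue point to the left of 0.

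The upstream bases of 6 of these genes are printed next, because their transcripts separated the groups most clearly or moved apart from a close relative. Syp, Sv2c, Sv2b and Cplx2 were called higher at ZT20 under each of 5 ways of scaling the samples (2.15% of all tested genes were), Synpr was lower under each, and Cplx1 is the relative of Cplx2 that was not called. Each sequence is the 250 bases before a transcription start, 5′ to 3′ on the gene's strand, from RefSeq with build GRCm38.p6. Capitals mark matches to the GC box GGGCGG or to the E-box CACGTG, the letters bound by the clock proteins CLOCK and BMAL1. Sv2b has 4 listed starts and the one shown is the one with an E-box. Synpr has 2, and the first listed is shown.
Syp, chrX:7638330-7638579, plus strand: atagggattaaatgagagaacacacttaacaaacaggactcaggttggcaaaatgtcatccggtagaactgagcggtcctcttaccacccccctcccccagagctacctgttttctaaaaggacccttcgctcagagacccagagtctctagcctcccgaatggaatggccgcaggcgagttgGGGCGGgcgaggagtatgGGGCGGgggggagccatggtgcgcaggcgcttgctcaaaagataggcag
Sv2c, chr13:96132578-96132827, minus strand: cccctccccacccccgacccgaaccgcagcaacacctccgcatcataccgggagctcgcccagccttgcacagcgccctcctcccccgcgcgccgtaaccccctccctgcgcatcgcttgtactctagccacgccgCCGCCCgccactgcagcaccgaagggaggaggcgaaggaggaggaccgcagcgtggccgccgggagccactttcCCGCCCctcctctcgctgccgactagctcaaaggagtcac
Sv2b, chr7:75302610-75302859, minus strand: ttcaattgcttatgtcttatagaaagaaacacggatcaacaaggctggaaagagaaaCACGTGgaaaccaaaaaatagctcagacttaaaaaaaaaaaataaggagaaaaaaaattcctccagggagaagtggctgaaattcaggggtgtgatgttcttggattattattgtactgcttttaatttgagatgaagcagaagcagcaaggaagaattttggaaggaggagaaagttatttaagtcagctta
Cplx2, chr13:54302306-54302555, plus strand: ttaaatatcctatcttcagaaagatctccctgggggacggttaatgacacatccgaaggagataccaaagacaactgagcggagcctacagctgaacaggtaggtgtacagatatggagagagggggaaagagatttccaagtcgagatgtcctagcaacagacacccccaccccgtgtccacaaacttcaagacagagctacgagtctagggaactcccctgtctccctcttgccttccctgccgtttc
Cplx1, chr5:108550028-108550277, minus strand: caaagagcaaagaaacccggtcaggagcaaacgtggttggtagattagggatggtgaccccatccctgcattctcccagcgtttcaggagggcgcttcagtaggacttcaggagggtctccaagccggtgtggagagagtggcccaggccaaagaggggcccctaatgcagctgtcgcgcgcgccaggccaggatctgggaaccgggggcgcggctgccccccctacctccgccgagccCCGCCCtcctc
Synpr, chr14:13284530-13284779, plus strand: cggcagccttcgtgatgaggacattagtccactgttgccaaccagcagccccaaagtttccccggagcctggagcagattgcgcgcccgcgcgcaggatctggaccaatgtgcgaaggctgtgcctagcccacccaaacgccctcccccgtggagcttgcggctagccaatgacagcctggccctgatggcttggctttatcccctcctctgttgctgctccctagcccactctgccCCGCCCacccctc
The Syp window held the GC box at 67 and 49 bases before the start, the Sv2c window at 114 and 40, the Cplx1 window at 11 and the Synpr window at 13. The E-box of Sv2b began 193 bases before the start. None of the letters searched was in the Cplx2 window shown.

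Promoters were listed for 41 of the 49 genes, 53 windows in all, and were searched on both strands for 5 motifs. The E-box CACGTG was in 4 of the 53 windows (7.55%), those of Cadps2, Napa, Nsf and Sv2b, against 6.02% of 32851 windows of the same length. Of these 4 genes only Sv2b was called between ZT20 and ZT8. The D-box TTATGTAA, which PAR-bZIP factors bind, was in 0 of the 53 (0.819% of all windows). The half-site AGGTCA of ROR and REV-ERB receptors was in 3 (5.66%, against 14%), those of Erc2, Syt1 and Syt2. The cAMP response element TGACGTCA was in 1, that of Syn1 (1.89%, against 1.55%). The GC box GGGCGG, which SP factors bind, was in 31 (58.5%, against 32.7%). No motif contains another, though the E-box and the cAMP response element share the letters ACGT and the half-site and that element share GTCA. A match is a run of letters and no measure of binding, and no match says only that the letters are not in that window.

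Among the 9 genes of the vesicle membrane, 4 rose (Syp, Sv2c, Sv2b and Syn2) and 1 fell (Synpr). Sample values are given in TPM in the order of replicates 1 to 4 at ZT20 and then 1 to 3 at ZT8. Syp (ENSMUSG00000031144), which encodes synaptophysin, an abundant membrane protein used to mark synaptic vesicles, was at 120, 77.7, 88.0 and 69.4 TPM at ZT20 and at 23.6, 21.6 and 20.1 at ZT8. The means were 88.8 ± 22.3 TPM (SD, n = 4) and 21.8 ± 1.72 (SD, n = 3). The lowest ZT20 sample was above the highest ZT8 sample, and the log2 difference was 1.95 (SE 0.19, adjusted p = 0.00202). Synpr (ENSMUSG00000056296), which encodes the close relative synaptoporin, went the other way. It was at 195, 295, 274 and 234 TPM at ZT20 and at 391, 548 and 361 at ZT8, again without overlap. Its log2 difference was -0.79 (SE 0.19, adjusted p = 0.0275), and adjusted p was 0.0653, 0.0627 and 0.0807 without ZT20 replicate 1, 3 or 4. The third relative, Sypl, which is also made outside neurons, had means of 18.4 and 17.0 TPM at ZT20 and ZT8 and was not called.

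The SV2 proteins are vesicle glycoproteins with many membrane passes, and SV2C is a receptor for a botulinum toxin. Sv2c (ENSMUSG00000051111) was at 56.9, 50.5, 63.3 and 68.1 TPM at ZT20 against 19.9, 12.8 and 19.7 at ZT8 (log2 difference 1.73, SE 0.19, adjusted p = 0.00274). Sv2b (ENSMUSG00000053025) was at 94.9, 76.6, 99.9 and 107 TPM against 49, 35.8 and 47.0 (1.09, SE 0.16, adjusted p = 0.0068). Every ZT20 sample was above every ZT8 sample in both. Sv2a, the family member found at most synapses, was the least abundant, with means of 15.9 and 11.1 TPM, overlapping groups and an adjusted p of 0.119. Synapsins tether vesicles to one another in a reserve pool. Syn2 was at 36.5, 35.4, 34.8 and 31.7 TPM at ZT20 against 15.9, 17.3 and 19.8 at ZT8 (log2 difference 0.94, SE 0.14, adjusted p = 0.00673), with no overlap. Syn1, the most abundant synapsin transcript, had means of 270 and 188 TPM, with ZT20 replicate 2 inside the ZT8 range (adjusted p = 0.143). Syn3 had means of 5.14 and 5.20 TPM.

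**Figure D2:**
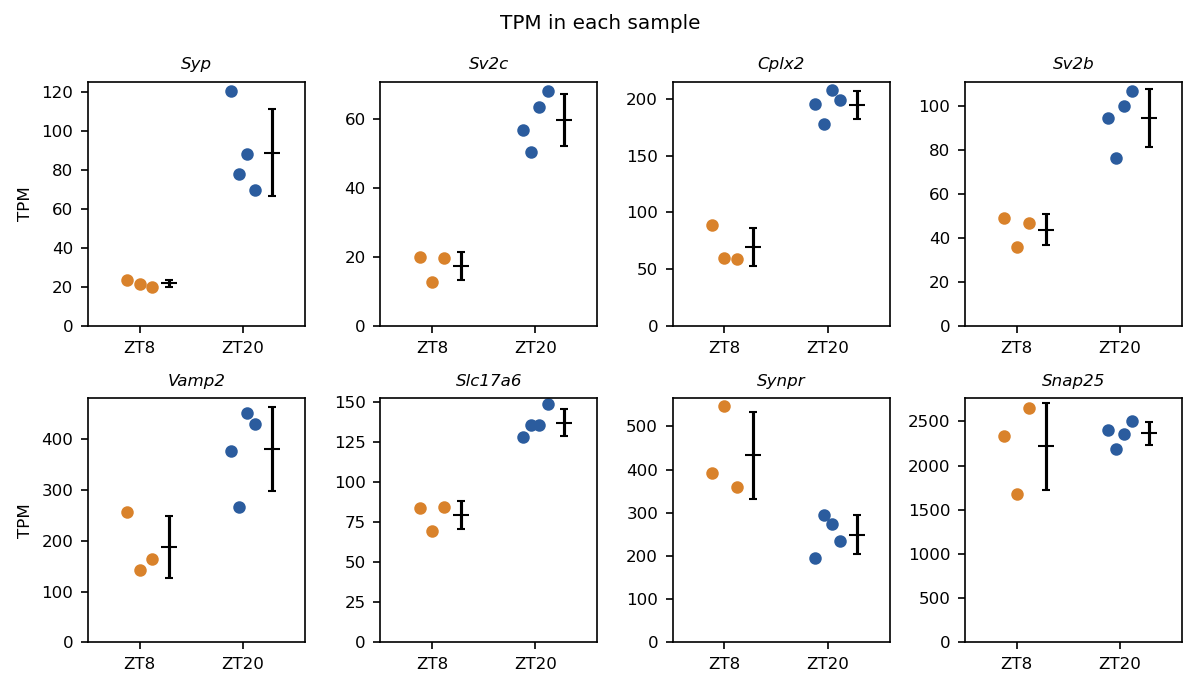
TPM of 8 genes in each sample, ZT8 in orange (3 samples) and ZT20 in blue (4 samples), on axes that start at 0. Black marks are means with SD. Syp at ZT20 spans 69.4 to 120 TPM, all above its ZT8 values, Synpr is lower at ZT20 in every sample, and the ZT20 values of Snap25 lie inside its ZT8 range.

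Synaptotagmins sense calcium and trigger fusion. Of the 7 measured, 5 rose and 2 (Syt5 and Syt11) were not called. Syt1, a sensor for fast release, was at 76.3, 77.8, 94.5 and 83.8 TPM at ZT20 and at 51.7, 42.7 and 52.3 at ZT8 (log2 difference 0.75, SE 0.13, adjusted p = 0.0109). Syt2, the fast sensor of other synapses, was at 132, 75.0, 115 and 136 TPM against 57.3, 32.8 and 62.0 (1.17, adjusted p = 0.0242), a call lost without ZT20 replicate 1, 3 or 4. In both genes the groups did not overlap. Syt7, a sensor with high calcium affinity that serves slow release and membrane repair, was at 9.55, 9.43, 12.4 and 9.50 TPM against 3.94, 1.79 and 4.22 (1.42, SE 0.26, adjusted p = 0.0121). Syt9 was at 13.8, 15.1, 15.9 and 12.4 TPM against 7.59, 7.10 and 5.28 (1.01, adjusted p = 0.0125), a call lost without ZT20 replicate 3. These were the least abundant of the 7, and at ZT20 each exceeded its highest ZT8 value in all 4 samples.

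Syt4 and Syt11 belong to the synaptotagmins that bind calcium weakly or not at all, and Syt4 sits on dense-core vesicles. Syt4 was at 571, 731, 537 and 577 TPM at ZT20 and at 364, 352 and 348 at ZT8. Its log2 difference was 0.76 (SE 0.13, adjusted p = 0.00881), and the ZT8 samples lay within a few percent of one another. Syt11 was the most abundant synaptotagmin transcript, at 1156, 1113, 1346 and 1555 TPM against 1119, 723 and 1232. Its groups overlapped, because ZT8 replicates 1 and 3 were at the level of ZT20 replicates 1 and 2 (adjusted p = 0.237). Syt5 had means of 171 and 134 TPM (adjusted p = 0.206).

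SNARE proteins of the vesicle and the plasma membrane zip together to drive fusion. Of the 5 among the 49 genes, only Vamp2 was called. Vamp2, the main vesicle SNARE of most synapses, was at 377, 265, 452 and 430 TPM at ZT20 and at 256, 142 and 164 at ZT8. The lowest ZT20 and the highest ZT8 values were close (265 and 256), the log2 difference was 1.04 (SE 0.24, adjusted p = 0.025), and the call was lost without ZT20 replicate 1, 3 or 4 or ZT8 replicate 3. Snap25, its plasma membrane partner and the second most abundant of the 49 transcripts, was at 2403, 2187, 2353 and 2510 TPM against 2331, 1678 and 2647. All ZT20 values lay inside the ZT8 range (log2 difference 0.12, SE 0.16, adjusted p = 0.631). Stx1a, the other plasma membrane partner, had means of 47.2 and 36.7 TPM (adjusted p = 0.19). Vamp1, which takes the place of Vamp2 at some sensory and motor synapses, had means of 140 and 93.3 TPM (adjusted p = 0.192), and Vamp3, the form made in most cells, had means of 11.1 and 9.90 (adjusted p = 0.601).

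Of the 6 genes that assemble, restrain or recycle SNARE complexes, 3 rose. Complexins bind assembled SNAREs and both hold back and promote fusion. Cplx2 (ENSMUSG00000025867) was at 196, 178, 208 and 199 TPM at ZT20 and at 88.8, 59.9 and 59.4 at ZT8, with means of 195 ± 12.4 (SD, n = 4) and 69.4 ± 16.8 (SD, n = 3). The log2 difference was 1.5 (SE 0.16, adjusted p = 0.00234). Cplx1, the more abundant form, was at 671, 492, 734 and 811 TPM against 562, 303 and 628, and its groups overlapped (log2 difference 0.49, SE 0.27, adjusted p = 0.227). Stxbp5 encodes tomosyn, which occupies SNAREs in place of the vesicle protein. It was at 7.86, 10.1, 7.45 and 7.24 TPM against 3.38, 4.55 and 3.12 (0.97, adjusted p = 0.0204), without overlap, a call lost without ZT20 replicate 1, 3 or 4 or ZT8 replicate 3.

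The ATPase NSF takes spent SNARE complexes apart with the help of SNAP adaptors. Nsf was at 418, 336, 442 and 455 TPM at ZT20 against 399, 194 and 352 at ZT8 (adjusted p = 0.22). Napa, the general adaptor, was at 702, 669, 768 and 844 TPM against 788, 631 and 828, and its fitted difference was -0.0028 on the log2 scale (SE 0.13, adjusted p = 0.99). Napb, the neuronal adaptor, was at 205, 186, 213 and 227 TPM against 171, 124 and 153, with no overlap (0.48, SE 0.14, adjusted p = 0.0461). It was close to the threshold and lost the call in 6 of the 7 fits that leave out 1 sample, all but the one without ZT8 replicate 1. Its difference was 0.11 with the length and GC trend removed and turned to -0.0078 relative to neuronal markers. Rab3 proteins are small GTPases that bring vesicles to the active zone. Rab3a was at 894, 681, 872 and 881 TPM against 774, 513 and 985, which overlap (adjusted p = 0.581). Rab3c was at 230, 196, 222 and 253 TPM against 175, 142 and 162 (0.49, adjusted p = 0.0343), without overlap, and the call was lost without ZT20 replicate 1, 3 or 4 or ZT8 replicate 2 or 3. Its difference turned to -0.10 with the length and GC trend removed (adjusted p = 0.616) and was 0.0011 relative to neuronal markers. Rab3b was far less abundant, with means of 10.1 and 7.12 TPM.

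All 7 active zone genes had higher values at ZT20 with no overlap between the groups, and 4 of them were called. Over all tested genes the shares were 24.5% and 12.8%, and 31.9% of those with a transcript over 5000 nt were called higher. Their median log2 difference was 1.06. These are long transcripts (median 8796 nt), and with the trend with length and GC content removed 0 of the 7 were called, the lowest adjusted p was 0.184 (Unc13a) and the median was 0.34. Unc13a and Unc13c encode Munc13 proteins, which prime vesicles for fusion. Unc13a was at 19.5, 16.8, 17.8 and 17.4 TPM at ZT20 and at 8.57, 7.95 and 7.35 at ZT8 (log2 difference 1.08, SE 0.15, adjusted p = 0.00583). Unc13c was at 5.47, 4.92, 5.65 and 4.86 TPM against 2.73, 1.81 and 1.54 (1.06, adjusted p = 0.0181), a call lost without ZT20 replicate 1, 3 or 4. Bassoon and piccolo are giant scaffolds of the release site. Bsn was at 8.71, 8.34, 9.21 and 10.3 TPM against 3.33, 5.79 and 3.26 (1.02, adjusted p = 0.0216), and the call was lost without ZT20 replicate 1, 3 or 4 or ZT8 replicate 3. Pclo was at 5.22, 6.42, 6.99 and 6.53 TPM against 2.3, 1.26 and 3.04 (1.22, adjusted p = 0.0171), and the call was lost without ZT20 replicate 3 or 4. Rims1, Rims2 and Erc2, which link vesicles and calcium channels, missed the threshold. Rims1 had a log2 difference of 1.30 and ZT8 values from 2.20 to 12.6 TPM (adjusted p = 0.0706), Rims2 one of 0.57 (adjusted p = 0.0688) and Erc2 one of 0.91 (adjusted p = 0.0538).

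CAPS proteins prime dense-core vesicles. Cadps was at 94.2, 102, 90.4 and 76.2 TPM at ZT20 against 47.4, 50.2 and 57.8 at ZT8 (log2 difference 0.79, SE 0.14, adjusted p = 0.0104), without overlap. With the length and GC trend removed its difference was 0.16 (adjusted p = 0.542). Cadps2 was far less abundant, with overlapping groups and means of 7.02 and 6.17 TPM (adjusted p = 0.692). Vesicular glutamate transporters fill vesicles and define glutamatergic neurons. Slc17a6, which encodes VGLUT2, the form of most sensory neurons, was at 128, 136, 136 and 148 TPM against 84.0, 69.3 and 84.5 (0.78, SE 0.12, adjusted p = 0.00719). The groups were separate and each was narrow. Slc17a7, which encodes VGLUT1, the form of large myelinated afferents, had means of 22.4 and 14.3 TPM (adjusted p = 0.132). Slc17a8, which encodes VGLUT3, the form of a subset of low-threshold touch afferents, was the least abundant of the 49, at 0.947 and 1.45 TPM, and was not called.

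Of the 5 endocytic genes 3 rose. Synj1 encodes synaptojanin, a lipid phosphatase that strips the clathrin coat. It was at 91.1, 70.3, 102 and 105 TPM at ZT20 against 46.5, 40.7 and 40.2 at ZT8 (log2 difference 1.08, SE 0.16, adjusted p = 0.00673). Snap91 encodes AP180, which sets the size of the clathrin coat, and was at 111, 101, 127 and 142 TPM against 67.8, 50.3 and 72.0 (0.92, SE 0.17, adjusted p = 0.0125). Dynamins cut the new vesicle from the membrane. Dnm3 was at 80.1, 67.8, 90.7 and 97.1 TPM against 47.7, 27.1 and 51.6 (1.02, adjusted p = 0.0235), a call lost without ZT20 replicate 1, 3 or 4. In these 3 genes every ZT20 value exceeded every ZT8 value. Dnm1 was less abundant, overlapped between the groups and had means of 21.8 and 26.4 TPM (log2 difference -0.23, adjusted p = 0.48). Amph, whose product brings dynamin to the membrane, had means of 58.8 and 46.9 TPM (adjusted p = 0.28). Synucleins bind vesicle membranes. Sncg, the form typical of peripheral sensory neurons, was the most abundant of the 49, at 4129, 4506, 3886 and 3650 TPM at ZT20 against 4720, 6850 and 5067 at ZT8. Its groups did not overlap, the ZT20 values being lower, but it missed the threshold (log2 difference -0.44, SE 0.15, adjusted p = 0.0767). Sncb had means of 250 and 220 TPM (adjusted p = 0.445).

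TPM is an abundance per transcript length, so levels can be set side by side. Summed over the 49 genes, TPM made up 1.37% to 1.5% of a ZT20 sample and 1.33% to 1.46% of a ZT8 sample, ranges that overlap. The 8 most abundant members were Sncg, Snap25, Syt11, Rab3a, Napa, Cplx1, Syt4 and Nsf. Only Syt4 of these was called, a share near that of all tested genes.

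Close relatives were also compared within each sample. One scaling factor per sample cancels in a ratio, apart from the effect of the added 1 TPM on low genes, but a trend with transcript length does not. For 18 pairs of relatives the groups' log2 ratios of TPM + 1 were set against each other in an exact permutation test (two-sided), whose smallest p with 4 against 3 samples is 0.0286. The groups did not overlap in 6 pairs, each with an exact p of 0.0286 and an adjusted p of 0.0857, so 0 of the 18 passed 0.05 after adjustment. No share was computed for other pairs of genes. Among single genes, 33.2% of all tested did not overlap. One of the 6 pairs holds Slc17a8, which passed the filter on low values only through ZT8, and its p is no test. Without that pair, a change made after seeing the data, 5 of 17 pairs did not overlap and the lowest adjusted p of the exact test was 0.0971. The log2 ratio of Sv2c to Sv2a was 1.62, 1.93, 1.78 and 2.05 at ZT20 and 0.76, 0.46 and 0.57 at ZT8, a difference of 1.25. That of Sv2b to Sv2a was 2.35, 2.52, 2.43 and 2.7 against 2.01, 1.87 and 1.78, a difference of 0.61. In every sample Sv2b and Sv2c exceeded Sv2a, and at ZT20 by more.

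The log2 ratio of Cplx1 to Cplx2 was 1.77, 1.46, 1.82 and 2.02 at ZT20 and 2.65, 2.32 and 3.38 at ZT8, a difference of -1.02. Cplx1 exceeded Cplx2 in every sample. The log2 ratio of Napb to Napa was -1.77, -1.84, -1.85 and -1.89 against -2.20, -2.34 and -2.43 (difference 0.48). That of Dnm3 to Dnm1 was 1.66, 1.68, 1.91 and 2.33 against 1.31, 0.090 and 0.54 (difference 1.25). The ratio of Slc17a8 to Slc17a6 was -6.15, -6.20, -5.90 and -6.34 against -5.73, -4.83 and -4.70 (difference -1.06). Slc17a8 is near the filter, at 0.947 TPM on average at ZT20 and 1.45 at ZT8, and this ratio is given as a description. In 5 of these 6 pairs the relative that was higher at ZT20 has the longer transcript. Slc17a8 to Slc17a6 is the exception. With the trend with length and GC content removed, the differences were 1.03 for Sv2c to Sv2a, 0.52 for Sv2b to Sv2a, -0.60 for Cplx1 to Cplx2, 0.26 for Napb to Napa, 1.14 for Dnm3 to Dnm1 and -1.12 for Slc17a8 to Slc17a6. In the remaining 12 pairs the groups overlapped, among them Syn2 to Syn1, Vamp1 to Vamp2 and Unc13c to Unc13a.

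**Figure D3:**
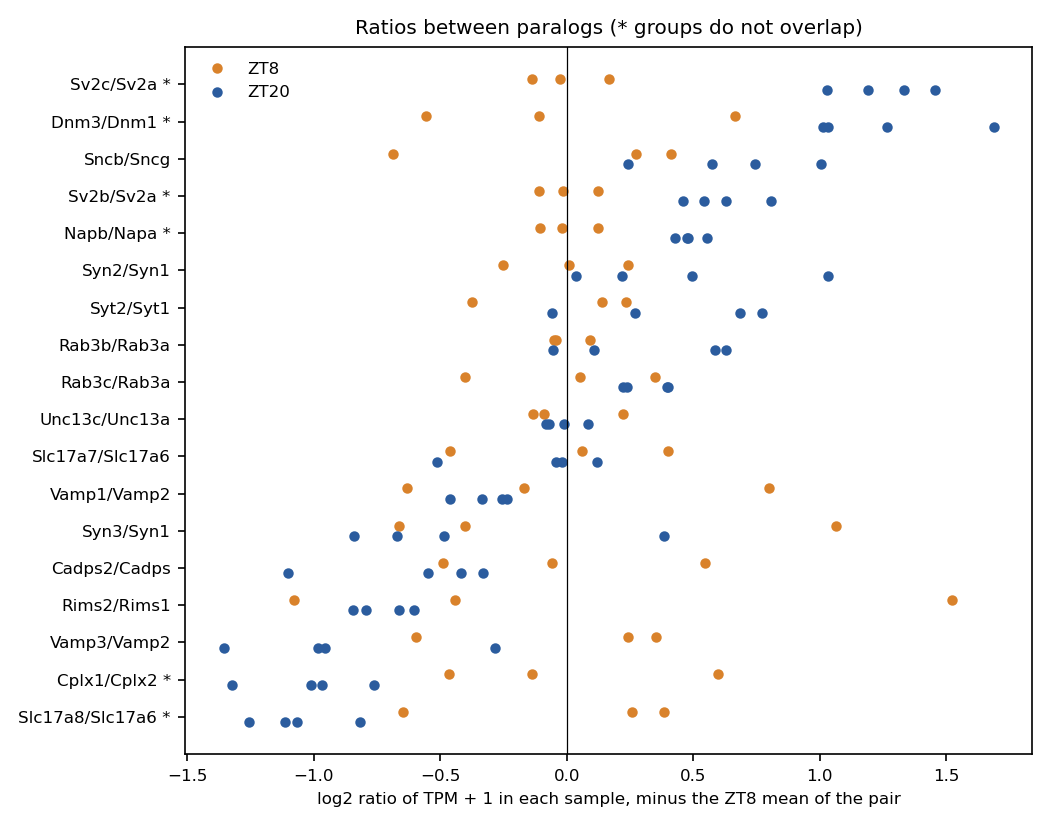
Log2 ratio of TPM + 1 within each sample for 18 pairs of relatives, with the ZT8 mean of the pair subtracted. Orange points are ZT8 samples, blue points ZT20 samples, and a star marks the 6 pairs whose groups do not overlap. The ratio of Sv2c to Sv2a and that of Dnm3 to Dnm1 stand farthest to the right at ZT20.

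Longer transcripts had higher values at ZT20 across the whole table, and many vesicle and active zone genes are long. Spearman's rho of the log2 difference with log2 transcript length was 0.54 over the 49 genes and 0.41 over all tested genes, which share the same 7 libraries. The called members had a median longest transcript of 6074 nt and the others of 3766 nt. Of the 18 members with a transcript over 5000 nt, 14 were called higher, against 31.9% of the 2945 tested genes of that length. Of the 3 members up to 1612 nt (Sncg, Sncb and Rab3a) 0 were called higher, against 4.64% of such genes. When the trend with transcript length and GC content was removed within each sample, 7 of the 49 genes were called. Cplx2, Slc17a6, Sv2b, Sv2c, Syp and Vamp2 were higher and Synpr was lower, and 3.74% of tested genes were called higher and 5.12% lower in that fit. The median over the 49 was then 0.26. The call ended for the other 17 genes, whose adjusted p ranged from 0.0534 (Syn2) to 0.616 (Rab3c). Of these 17 differences 16 were still positive: 0.77 for Syt7, 0.69 for Syt9, 0.61 for Syn2, 0.55 for Syt2, 0.50 for Syt4, 0.50 for Pclo, 0.47 for Synj1, 0.42 for Snap91, 0.42 for Unc13c, 0.41 for Dnm3, 0.37 for Stxbp5, 0.34 for Unc13a, 0.31 for Syt1, 0.21 for Bsn, 0.16 for Cadps and 0.11 for Napb. Of the 5 synaptotagmins and 3 endocytic genes called on the deposited values 0 were called in that fit, with role medians of 0.50 against 0.76 and 0.41 against 0.92.

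**Figure D4:**
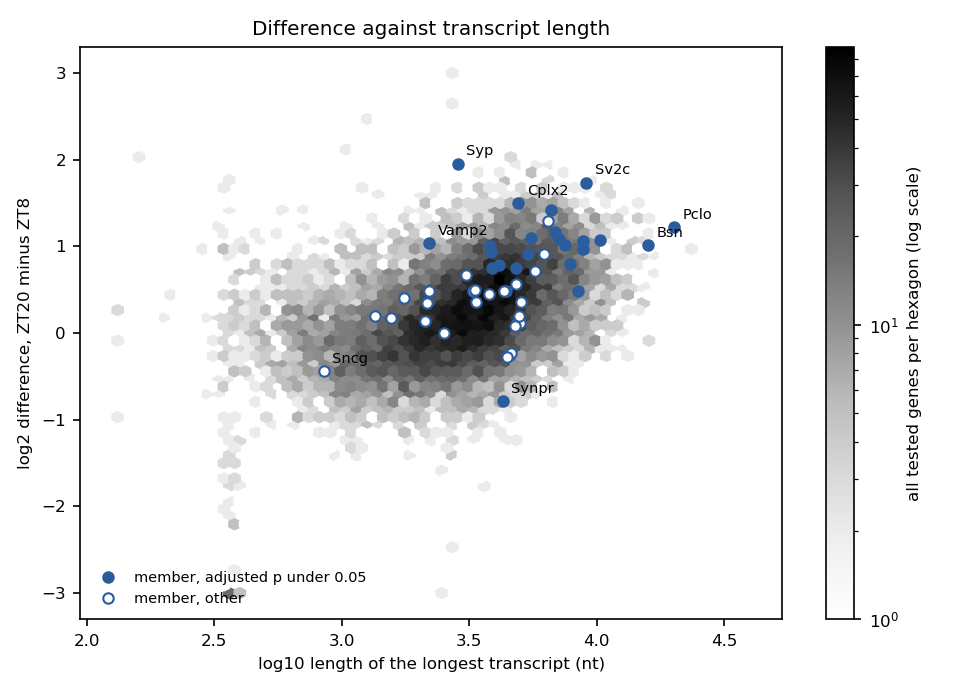
Log2 difference between ZT20 and ZT8 against the length of the longest annotated transcript (log10 of nt). Grey hexagons count all tested genes, with differences beyond 3 drawn at 3, and circles are the 49 genes, filled where the adjusted p was under 0.05. The grey cloud climbs with length, Syp lies far above it at its length of 2843 nt, and Bsn and Pclo are the longest of the 49.

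The RNA mixture also differed. Markers of satellite glia, the cells that wrap sensory neurons, summed to 7143 to 8677 TPM at ZT20 and to 11940 to 14685 TPM at ZT8, with no overlap and 2 of 8 markers called lower. Of 20 pan-neuronal markers 7 were called higher and 1 lower, with a median of 0.39 and sums of 21136 to 25473 against 17146 to 23400 TPM. The mean log2 level of those neuronal markers was 8.87 to 8.96 at ZT20 and 8.23 to 8.61 at ZT8. Nociceptor markers (6 of 12 higher) and markers of large myelinated neurons (2 of 12 higher) overlapped between the groups in their sums. Over all tested genes the shares called were 12.8% higher and 3.61% lower. Plasma cell markers summed to 267 to 486 TPM against 496 to 935, with 1 of 5 called lower and a median log2 difference of -0.0047. Schwann cell (1 of 9 lower), macrophage (1 higher and 1 lower of 10), fibroblast (0 of 5) and erythroid markers (0 of 5) overlapped in their sums, endothelial markers summed to at most 5.03 TPM, and no listed marker was at 0 in every sample. In such mixed RNA, fewer cells of a type and less RNA per cell cannot be told apart.

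When each sample was scaled to its neuronal markers, 8 of the 49 genes were called higher (Cplx2, Pclo, Sv2b, Sv2c, Synj1, Syp, Syt7 and Unc13a) and 5 lower (Dnm1, Napa, Snap25, Sncg and Synpr), with a median of 0.18. In that fit 3.34% of tested genes were called higher and 19.0% lower, because the scaling moved the median of all genes from 0.23 to -0.26. With a covariate for the balance of neuronal and other markers, 0 of the 49 were called (17 at an unadjusted p under 0.05), and 60 of all tested genes were (2266 at an unadjusted p under 0.05). That balance was higher in every ZT20 sample than in every ZT8 sample, so this fit can hardly separate it from the clock time. Called on the deposited values, under quantile normalization, under median-ratio scaling, with the length and GC trend removed, and relative to neuronal markers were 5 genes: Cplx2, Sv2b, Sv2c, Synpr and Syp. Over all tested genes 2.15% were called higher and 2.46% lower in all 5. Their log2 differences without the length and GC trend, and then relative to neuronal markers, were 1.82 and 1.46 for Syp, 1.07 and 1.24 for Sv2c, 0.99 and 1.01 for Cplx2, 0.57 and 0.60 for Sv2b, and -1.11 and -1.28 for Synpr.

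**Figure D5:**
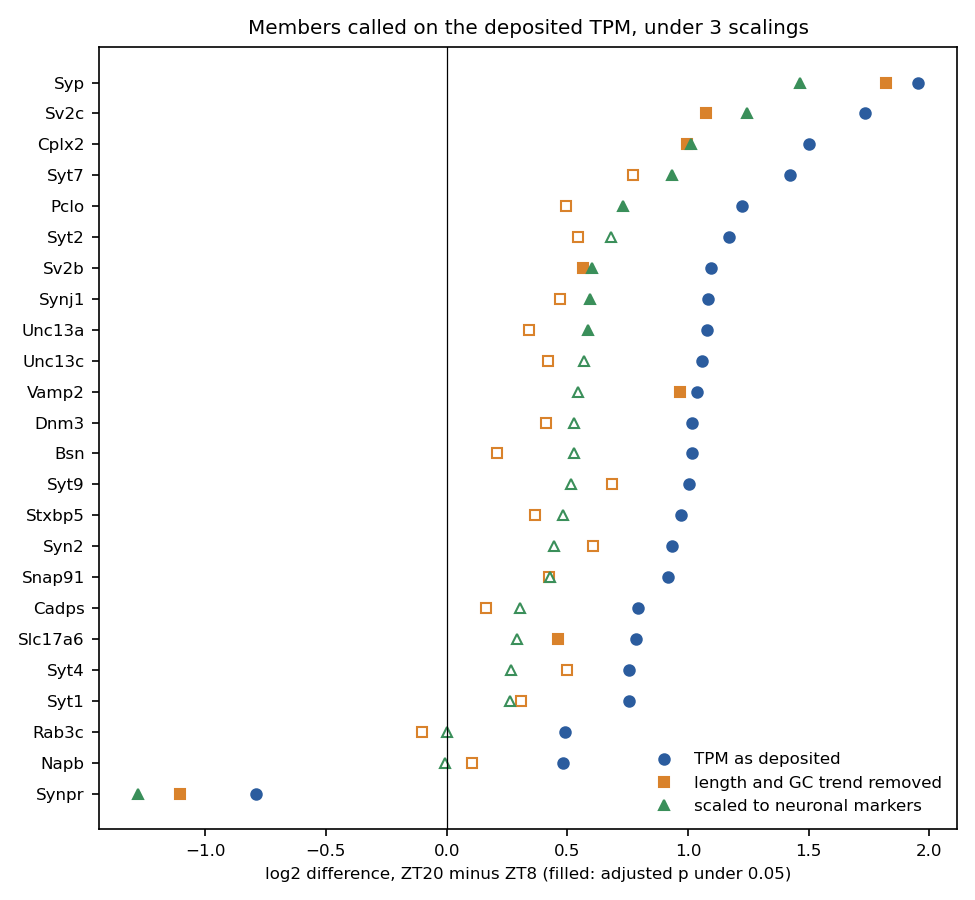
Log2 difference between ZT20 and ZT8 for the 24 called genes on the deposited TPM (circles), after the length and GC correction (squares) and relative to neuronal markers (triangles). Filled symbols have an adjusted p under 0.05. Syp, Sv2c, Cplx2, Sv2b and Synpr are filled in all 3, while Rab3c and Napb fall to about 0.

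The number of genes above 0 TPM was 24192 to 25238 at ZT20 and 18297 to 22973 at ZT8, lowest in ZT8 replicate 2. That sample held the lowest ZT8 value of many of the genes, among them Syt7 (1.79 TPM), Rims1 (2.20 TPM) and Nsf (194 TPM). Without ZT8 replicate 2, 25 genes were called and the median was 0.49, while over all tested genes 3047 were called and the median was 0.15. The libraries were named by numbers at ZT20 and by letters at ZT8, so any batch these names stand for and the clock time cannot be told apart. Of the 49 genes 34 overlap another annotated gene, and whether reads were assigned by strand is not stated. Of the called genes, Cplx2, Napb, Rab3c, Syt9 and Vamp2 have no such neighbour.

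Other genes of the vesicle and secretory cycle were taken from a list of 153, of which 152 were in the table and 137 were tested. Of these, 33 rose and 6 fell, with a median log2 difference of 0.38. The split was 17 higher and 13 lower after median-ratio scaling, 8 and 8 with the length and GC trend removed, and 6 and 24 relative to neuronal markers. After median-ratio scaling 7.35% of all tested genes were called higher and 8.47% lower, and the shares for the other settings are those given above. Relative to neuronal markers and without the length and GC trend, the counts on this list were near those shares. By role, 9 of 17 active zone genes rose, as did 7 of 28 endocytic genes, 4 of 14 Rab genes and regulators, 3 of 13 vesicle membrane genes, 3 of 12 synaptotagmins and related sensors, and 2 of 8 SNARE assembly genes, and none of these fell. Of 11 dense-core vesicle genes 2 rose and 2 fell, of 17 SNAREs 2 rose and 2 fell, and of 17 proton pump genes 1 rose and 2 fell. With the length and GC trend removed, 0 of the 17 active zone genes (lowest adjusted p 0.0516) and 0 of the 13 vesicle membrane genes were called, and 3 endocytic genes were higher and 1 lower. Of the synaptotagmins and related sensors 2 were higher and 1 lower, and of the dense-core vesicle genes 1 was higher and 2 lower. The Rab and SNARE assembly genes had 1 higher each, the SNAREs 1 lower and the proton pump genes 3 lower.

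Among the called genes of that list, the largest rises were in Unc13d, Dnajc6 and Slc18a2. Unc13d, a Munc13 known from secretory granules of immune cells, was at 7.10, 10.7, 6.45 and 5.61 TPM at ZT20 and at 2.75, 0.986 and 1.94 at ZT8 (log2 difference 1.56, adjusted p = 0.0134). Dnajc6, which encodes the clathrin uncoating factor auxilin, was at 31.2, 28.6, 35.1 and 34.4 TPM against 12.8, 13.2 and 10.7 (1.33, SE 0.15, adjusted p = 0.00307). Slc18a2, the vesicular monoamine transporter, was at 18.2, 28.6, 15.2 and 14.1 TPM against 6.22, 12.5 and 3.68 (1.32, adjusted p = 0.0452). In these 3 genes the groups did not overlap. With the length and GC trend removed, adjusted p was 0.0516 for Unc13d, 0.0158 for Dnajc6 and 0.198 for Slc18a2. Relative to neuronal markers it was 0.0319, 0.0155 and 0.204 in the same order.

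Among the called genes, the largest falls were in Pam, which amidates neuropeptides (13.1, 35.9, 22.8 and 22.4 TPM against 56.9, 60.9 and 51.6, log2 difference -1.31, adjusted p = 0.02), in Atp6v0b, a proton pump subunit (1060, 1260, 966 and 997 TPM against 1550, 2451 and 1692, -0.80, adjusted p = 0.0196), and in Scg5, a chaperone of a prohormone convertase. Scg5 was at 135, 140, 133 and 137 TPM against 187, 209 and 227 (-0.60, SE 0.11, adjusted p = 0.0108). Of the 3 granins named here, all of dense-core vesicles, Scg2 rose (215, 196, 194 and 164 TPM against 128, 112 and 123, log2 difference 0.66, adjusted p = 0.013). Chga (means of 132 and 104 TPM, adjusted p = 0.356) and Chgb (83.7 and 60.3 TPM, adjusted p = 0.161) were not called.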

How the data were processed

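RNA was sequenced from 7 neuron-enriched samples of injured dorsal root ganglia. The authors deposited 1 table of TPM values (transcripts per 1000000), each sample having the same sum, so sequencing depth is unknown and precision rests on the number of samples. Per the submitters' processing notes, FastQC 0.11.9, Trim Galore 0.6.6, Salmon 1.6.0, DESeq2 1.34.0 and build GRCm39 were used. Their roles and the annotation release are not given in the sources used here.

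Every column matched a sample by its name, leaving 0 unmapped. Genes averaging 1 TPM or more were fitted with limma 3.58.1 (lmFit, eBayes with an intensity trend, R 4.3.3) on log2(TPM + 1), a scale that understates changes of low genes. Tests were two-sided, without covariates, with Benjamini-Hochberg adjustment over all 14800 genes and a threshold of 0.05. Differences are ZT20 minus ZT8. The fit was tested on simulated data. Fold values are ratios of mean TPM.

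Length, GC content and overlap came from GENCODE M21 by gene identifier (99.6% of tested genes had a length), and the length and GC correction is a loess per sample (span 0.3). The same replicate numbers occur in both groups but the labels tie them to no shared animal, litter or day, so the fit with a replicate block is an alternative only. Other alternatives were no filter, a filter at 5 TPM, a lower pseudocount (0.1), median-ratio and quantile scaling, scaling to neuronal markers, a marker score covariate, array weights, no intensity trend, an adjusted p under 0.10 and leaving out samples.

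The genes and lists were chosen with earlier results of these data known. Sample values are printed for called genes, the 8 most abundant and non-overlapping pairs, and, of other vesicle-cycle genes, for the 3 largest rises and falls and for Scg2. Chga and Chgb are named by the same rule, with their means, and 2 further genes of that rule are not reported here.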

Additional observations from a re-analysis of the deposited data

Results flagged for a closer look

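In each group of 4 ZT20 samples, the gap between the highest or lowest value and its nearest neighbour was compared with the group's range by Dixon's criterion. It was exceeded for 4 of the 49 genes, and chance flags about 1 group in 20, or 2.45 of 49. Syt7 was at 12.4 TPM in ZT20 replicate 3, with the nearest other sample at 9.55. Erc2 was at 19.4 TPM in ZT20 replicate 3, below the nearest at 20.9, in a group that spanned only 19.4 to 21.1. Slc17a8 was at 1.28 TPM in ZT20 replicate 3, above the nearest at 0.860. Rab3a was at 681 TPM in ZT20 replicate 2, below the nearest at 872. ZT20 replicate 3 is 1 of the samples whose sex-linked transcripts go against the label.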

How the results depend on the processing

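The number of the 49 genes called was 24 on the deposited values. It was 15 with no filter (0 lower), 7 after the length and GC correction (6 higher), 13 relative to neuronal markers (8 higher and 5 lower), 0 with the marker score as covariate, 4 with the replicate block and the length and GC correction together (3 higher), 0 without ZT20 replicates 3 and 4 and 0 without ZT20 replicates 2, 3 and 4. The lower calls numbered 2 under quantile normalization, array weights and an adjusted p under 0.10. The replicate block alone called 17. Deviations of samples with the same number correlated at -0.014 to 0.15, and 1 of 3 correlated best with its own number. Of other vesicle-cycle genes, 39 were called on the deposited values, 17 with no filter, 24 under quantile normalization and under the block, 16 after the length and GC correction, 6 with the block and that correction, 0 with the covariate and 0 in both fits without several ZT20 samples. Of all genes, 2433 were called (1899 higher and 534 lower), 1178 with no filter, 1307 after the length and GC correction (552 and 755), 60 with the covariate, 1174 with the block, 603 with the block and that correction, 3899 with array weights, 4079 at an adjusted p under 0.10 and 0 in both fits without several ZT20 samples. The split was 1088 and 1254 under median-ratio scaling and 1023 and 814 under quantile normalization. The median over the 49 genes was 0.43 after median-ratio scaling, 0.26 after the length and GC correction, 0.18 relative to neuronal markers, 0.42 with the covariate and 0.31 with the block and that correction, while the median of all genes moved from 0.23 to 0.019, 0.0031 and -0.26 in the first 3. Leaving out 1 sample gave 13 to 25 genes called (13 to 24 higher, 0 to 1 lower), 13 to 42 other vesicle-cycle genes, 723 to 3047 of all genes, medians of 0.49 to 0.78 and 6 to 9 pairs without overlap. The cause of these shifts was not tested.

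Log2 differences that changed sign belonged to genes that were not called, except Napb and Rab3c. After median-ratio scaling they were -0.12 for Syn3, -0.12 for Sypl, -0.14 for Snap25, -0.087 for Vamp3, -0.074 for Rab3a, -0.023 for Cadps2 and -0.050 for Sncb. Under quantile normalization they were -0.26 for Syn3, -0.15 for Sypl, -0.17 for Vamp3, 0.087 for Napa and -0.15 for Cadps2. After the length and GC correction they were -0.35 for Syn3, -0.29 for Sypl, -0.13 for Syt11, -0.28 for Snap25, -0.10 for Rab3c and -0.28 for Cadps2, and with the replicate block added -0.32, -0.26, -0.19, -0.28, -0.13 and -0.19 in the same order. Relative to neuronal markers they were -0.40 for Syn3, -0.37 for Sypl, -0.0066 for Sv2a, -0.084 for Syt5, -0.13 for Syt11, -0.37 for Snap25, -0.14 for Stx1a, -0.35 for Vamp3, -0.043 for Nsf, -0.0078 for Napb, -0.0028 for Cplx1, -0.31 for Rab3a, -0.29 for Cadps2, -0.13 for Amph, -0.29 for Sncb and -0.058 for Chga. With the covariate they were -0.094 for Sypl, -0.18 for Syt5, -0.26 for Snap25, -0.20 for Vamp1, -0.047 for Cplx1, -0.44 for Rab3a, -0.21 for Rab3b, -0.043 for Slc17a7, -0.0070 for Amph, -0.16 for Sncb, -0.40 for Chga and -0.11 for Chgb. Array weights gave -0.0094 for Snap25. Without ZT20 replicates 3 and 4 Syn3 was at -0.00092, and without ZT20 replicates 2, 3 and 4 it was at -0.33 and Cadps2 at -0.24. Leaving out 1 sample moved Syn3 from -0.17 to 0.49, Sypl from -0.054 to 0.25, Snap25 from -0.073 to 0.26, Napa from -0.12 to 0.074, Rab3a from -0.078 to 0.39 and Cadps2 from -0.11 to 0.45.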
